A study of Mus musculus with 4 samples.

Results

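Macrophages of the embryonic mouse nose were described here as the cells that carried the complement C1q transcripts together with other myeloid genes. A cell was counted when at least 4 of the 8 genes C1qa, C1qb, C1qc, Csf1r, Fcer1g, Tyrobp, Cx3cr1 and Mrc1 were detected and the 3 C1q chains summed to at least 3 UMIs. A UMI, a unique molecular identifier, marks 1 captured RNA molecule. The rule found 227 cells among 13739 retained cells with at least 500 genes and at most 10% mitochondrial UMIs. They were 55 and 58 cells of the control libraries 1 and 2, and 36 and 78 cells of the mutant libraries 1 and 2.

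Whole noses at embryonic day 14.5 were dissociated with papain, frozen and profiled by 10x Genomics 3' single-cell RNA sequencing in 2 control and 2 mutant libraries. The genotype label of the mutants named the transgene Tg(Sox10-cre)1Wdr with floxed Yap and Taz on C57Bl/6J, and the series design gave Sox10cre with yap flox/WT and taz flox/flox, a loss of Taz with 1 Yap allele kept. The controls were labelled C57Bl/6J, whereas the series design gave yap flox/flox and taz flox/flox without Cre, and this conflict was not settled. The labels named 2 noses per genotype. The labels do not say whether libraries of 1 genotype came from separate litters, so p-values measure the spread between these libraries. Sox10-driven Cre acts in the neural crest and its derivatives, and the study is titled for the loss of the coactivators YAP and TAZ there and its effects on olfactory ensheathing cells and neurons.

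Macrophages settle in embryonic tissues from yolk sac and fetal liver precursors and depend on signalling through the Csf1r receptor. C1q, made of an A, a B and a C chain, starts the classical complement pathway and tags material for removal. Tissue macrophages that lie along vessels are known for the hyaluronan receptor Lyve1 and the mannose receptor Mrc1, while the fractalkine receptor Cx3cr1 is known from microglia and from macrophages close to nerves. The same cells release chemokines, small proteins that draw other leukocytes.

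The 3 C1q genes lie next to each other on chromosome 4 (GRCm38), C1qb at 136880129 to 136886187, C1qc at 136889804 to 136893065 and C1qa at 136895917 to 136898803, all on the minus strand. Promoter sequence is shown for C1qb, the most abundant chain, and for Mrc1 and Stab1, which were higher in the macrophages with Lyve1. Each line is the 250 bases before the RefSeq transcription start (GRCm38.p6), 5′ to 3′ on the strand of the gene. Capitals mark GAGGAA or its reverse complement TTCCTC, a core of the kind read by the myeloid factor PU.1 (Spi1). C1qb lies at chr4:136886201-136886450, minus strand, Mrc1 at chr2:14229164-14229413, plus strand, and Stab1 at chr14:31168642-31168891, minus strand.
C1qb: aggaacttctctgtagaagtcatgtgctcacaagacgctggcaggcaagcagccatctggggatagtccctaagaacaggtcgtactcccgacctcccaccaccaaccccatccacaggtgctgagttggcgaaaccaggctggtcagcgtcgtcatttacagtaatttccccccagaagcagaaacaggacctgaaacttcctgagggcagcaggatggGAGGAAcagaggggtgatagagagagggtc
Mrc1: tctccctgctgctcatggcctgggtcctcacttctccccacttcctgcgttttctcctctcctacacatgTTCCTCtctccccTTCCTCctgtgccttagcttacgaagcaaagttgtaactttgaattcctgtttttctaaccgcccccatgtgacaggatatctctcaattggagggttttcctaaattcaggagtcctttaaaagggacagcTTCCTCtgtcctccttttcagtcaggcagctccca
Stab1: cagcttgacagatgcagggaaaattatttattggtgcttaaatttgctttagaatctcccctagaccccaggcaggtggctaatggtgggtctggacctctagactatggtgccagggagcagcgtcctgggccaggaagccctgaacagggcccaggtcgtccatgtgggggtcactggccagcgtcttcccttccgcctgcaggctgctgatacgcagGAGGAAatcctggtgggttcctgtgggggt
The motif was present once in the C1qb and Stab1 windows and 3 times in that of Mrc1. It was in 7639 of 32851 promoter windows of this length, or 23.3%, searched on both strands. Of the 5 rule genes with an entry, C1qb, C1qc and Mrc1 held it, and Fcer1g and Cx3cr1 held no match in this window. Of the genes that rose in Lyve1-detected macrophages (139 windows) 29.5% held it, and of those that fell (165 windows) 27.9%. A match is a string of letters and no evidence of binding.

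The libraries held between 20170229 and 35887490 UMIs, and the median macrophage carried 9429, 8813.5, 10051.5 and 7657 UMIs in control 1, control 2, mutant 1 and mutant 2. Pairs of libraries shared 3 to 5 barcodes among retained cells, and 1 macrophage barcode was shared, between control 2 and mutant 2. Some macrophages carried RNA of other cell types. Over 7 marker lists for other types, 15 macrophages (3, 4, 1 and 7 in the same order) had more than 0.5% of their UMIs there, against a median of 0.0101 to 0.0265% per library. The highest share was 21.3%, in control 2, where 1 macrophage held 1996 of the 1999 Hbb-bs UMIs. The red cell list (8 genes) summed there to 7187 UMIs per 1000000 (CPM) and in the macrophages of control 1, mutant 1 and mutant 2 to 78.8, 2.47 and 21.8 CPM. The mesenchyme list (10 genes) summed to 527, 622, 203 and 813 CPM in macrophages against 5776 to 7132 CPM in the other cells. Neutrophil genes S100a9, Camp, Ngp, Elane, Ly6g and Retnlg and the T cell genes Cd3g and Cd3e were at 0 in all macrophages. Other genes of these lists were found in the macrophages of control 1, control 2, mutant 1 and mutant 2. In that order the neutrophil and mast list (12 genes) summed to 21.01, 681.66, 9.89 and 7.79 CPM. It summed to 69.76 to 201.24 CPM in the other cells. The lymphocyte list (10 genes) summed to 71.8, 40.48, 76.68 and 63.88 CPM, against 3.03 to 6.18 CPM in the other cells.

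Cells at the edge of the rule were few. In control 1, control 2, mutant 1 and mutant 2, 4, 2, 5 and 7 further cells had at least 4 of the 8 genes but fewer than 3 C1q UMIs, and 1 cell (mutant 1) had 3 C1q UMIs or more but 3 of the 8 genes. Inside the rule, 3, 5, 3 and 1 cells had 3 to 5 C1q UMIs, and 45, 42, 20 and 57 cells had all 8 genes. The median macrophage held 58, 57, 69 and 41.5 C1q UMIs. Most members were therefore far from the limit in C1q counts.

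The genes of the rule set the macrophages apart by construction, and their levels are given as a description. C1qb, the B chain, was at 2464, 2060, 2625 and 2114 CPM in the macrophages of control 1, control 2, mutant 1 and mutant 2, and at 0.343 to 0.719 CPM in the other cells. C1qc was at 1847, 1564, 1737 and 1670 CPM and C1qa at 1557, 1357, 1504 and 1430 CPM. The chains kept near-constant shares of the C1q UMIs, C1qa 25.6 to 27.4%, C1qb 40.5 to 44.7% and C1qc 29.6 to 32.0% over the libraries. Across the cells of a library (36 to 78 cells, which share a library and differ in depth), Spearman's rho of C1qa with C1qc was 0.70 to 0.77 and of C1qb with C1qc 0.53 to 0.79. The adaptor genes Fcer1g (2202 to 2720 CPM) and Tyrobp (1384 to 1933 CPM), which pass on signals of activating receptors, were as abundant. Csf1r, the growth factor receptor, was at 441, 377, 450 and 478 CPM.

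**Figure D1:**
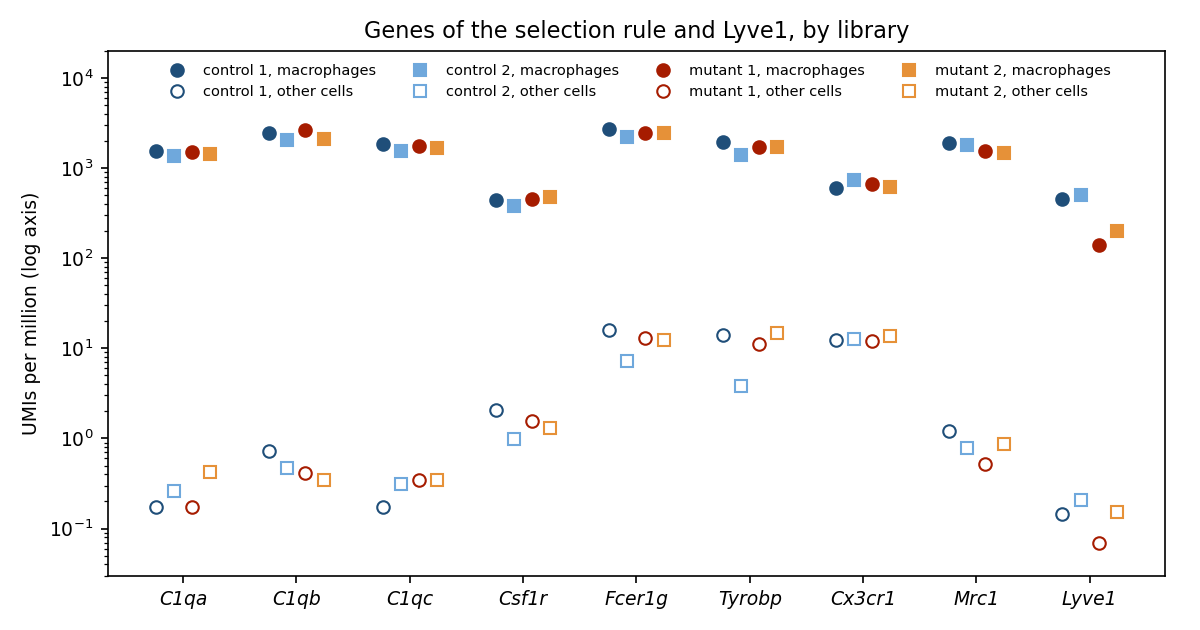
UMIs per 1000000 (log axis) of the 8 rule genes and Lyve1 in macrophages (filled) and in the other retained cells (open), 1 point per library. Every rule gene lies well above the other cells in the 4 libraries, with Cx3cr1 showing the highest background for its level, and Lyve1 is lower in both mutant libraries than in both controls.

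Background in the other cells differed by gene. Cx3cr1 was at 608, 730, 665 and 614 CPM in macrophages and at no more than 13.5 CPM in the other cells, of which 6.05 to 7.33% had at least 1 Cx3cr1 UMI, at median depths of 5244 to 8536 UMIs. Mrc1 was at 1882, 1812, 1544 and 1479 CPM against 0.522 to 1.21 CPM. Lyve1, which the rule did not use, was at 459, 497, 139 and 203 CPM against 0.0696 to 0.209 CPM. A Cx3cr1 UMI was thus a weaker mark of a macrophage than a Lyve1 or a Mrc1 UMI.

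Outside the rule, the genes with the highest fold over the other cells, taken in the library where that fold was lowest, were macrophage genes. The list, with genes at 100 CPM or more in every library, ran Fcrls, F13a1, Ms4a7, Ccl12, Trem2, Ms4a6b, Cd86, Aif1, Adgre1, Ms4a6d, Ccl24, Ifi207, Pf4, Lyve1 and Clec4a2. Fcrls, an Fc receptor-like gene known from mouse microglia, was at 538, 495, 722 and 617 CPM, at least 472-fold above the other cells with a pseudocount of 1 CPM. F13a1, coagulation factor XIII A, was at 1732, 1410, 994 and 1390 CPM. Adgre1, which encodes F4/80, was at 284, 334, 324 and 312 CPM. Trem2, a lipid receptor, was at 355, 223, 433 and 441 CPM. These genes took no part in the choice but were measured in the same cells, so no test was made.

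Genes known from other myeloid cells ranged from absent to abundant. Of the 14 genes of the microglia list, those that averaged 100 CPM or more included Cx3cr1, a rule gene, Fcrls, Trem2 and Cst3, and the list summed to 3097 to 4068 CPM in macrophages against 1242 to 1611 CPM in the other cells. Of the same list Sall1, the factor that marks microglia, was at 0, 0, 0 and 1.56 CPM, and Tmem119 at 5.25 to 22.3 CPM was below the 35.0 to 44.0 CPM of the other cells. P2ry12, an ADP receptor of microglia, was at 70.0, 50.2, 54.4 and 53.0 CPM. Of the monocyte list, Chil3 was at 0 in all libraries and Ly6c2 at 0, 0, 7.42 and 3.12 CPM. Ccr2, the receptor by which monocytes follow Ccl2, was at 91.1, 29.1, 89.1 and 120 CPM. Cd163, Timd4 and Marco, other resident macrophage genes, reached at most 28.0, 22.7 and 1.56 CPM.

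The floxed genes were near the limit of detection in these cells. Yap1 gave 0, 2, 0 and 1 UMIs and Wwtr1 (TAZ) 8, 9, 1 and 5 UMIs in the macrophages of control 1, control 2, mutant 1 and mutant 2, where 3 UMIs correspond to 5.25, 4.86, 7.42 and 4.67 CPM. The other cells held Yap1 at 66.1, 67.2, 57.2 and 57.3 CPM and Wwtr1 at 120, 149, 124 and 135 CPM. The 3' reads can come from transcripts without the floxed exons, so neither gene checks recombination. Of the 14 genes of the YAP and TAZ pathway, 2 passed the filter on low counts: Ccn1, a secreted matrix protein, at 126, 131, 59.4 and 142 CPM, and the receptor Axl at 22.8, 17.8, 24.7 and 1.56 CPM. The ligands of Csf1r and Cx3cr1 were low in macrophages and in the other cells. Csf1, a Csf1r ligand, was at 5.25, 3.24, 14.8 and 18.7 CPM in macrophages and at 12.7 to 15.7 CPM in the other cells, and Il34, its other ligand, at no more than 3.12 and at 2.86 to 4.54 CPM. Cx3cl1, the Cx3cr1 ligand, was at no more than 2.47 CPM in macrophages and at 1.46 to 2.70 CPM in the other cells.

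Macrophages made up 1.35% (control 1, exact Clopper-Pearson 95% interval 1.02 to 1.75), 2.34% (control 2, 1.78 to 3.02), 1.20% (mutant 1, 0.843 to 1.66) and 1.86% (mutant 2, 1.47 to 2.32) of retained cells. Intervals here cover counting error only. The groups overlapped, with control 2 highest and mutant 1 lowest. The mean was 1.85% ± 0.703 (SD, n = 2) in controls and 1.53% ± 0.465 (SD, n = 2) in mutants, an exact two-sided permutation p of 0.67, where 2 against 2 libraries cannot go below 0.33. The direction turned without control 2 (0.18 points) and without mutant 1 (0.01 points).

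To describe states, each macrophage was first thinned to 2000 UMIs by random draw, which left out the 2, 6, 3 and 2 cells with fewer. Lyve1 was then detected in 19 of 53 cells of control 1, or 35.8% (interval 23.1 to 50.2), and in 21 of 52 cells of control 2, or 40.4% (27.0 to 54.9). It was detected in 5 of 33 cells of mutant 1, or 15.2% (5.11 to 31.9), and in 17 of 76 cells of mutant 2, or 22.4% (13.6 to 33.4). Both mutant libraries lay below both controls. The mean was 38.1% ± 3.21 (SD, n = 2) in controls and 18.8% ± 5.10 (SD, n = 2) in mutants, a difference of -19.4 percentage points, with an exact permutation p of 0.33, the smallest that this design allows. Unthinned, the shares were 45.5, 51.7, 25.0 and 32.1%. In the other cells the thinned share was 0 to 0.0353% per library, where the 0 of 2315 cells in control 2 allows up to 0.130%.

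Mrc1 is a rule gene, so its share among the macrophages is partly set by how they were chosen and is a description. It was detected in 81.1% (68.0 to 90.6) and 78.8% (65.3 to 88.9) of control macrophages and in 66.7% (48.2 to 82.0) and 69.7% (58.1 to 79.8) of mutant ones. The unthinned shares were 89.1, 86.2, 72.2 and 84.6%. Without the macrophages rich in RNA of other types the thinned shares were 86.0, 77.1, 65.6 and 76.8%, still without overlap. The binomial intervals of the 4 libraries overlapped for Mrc1 and for Lyve1.

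**Figure D2:**
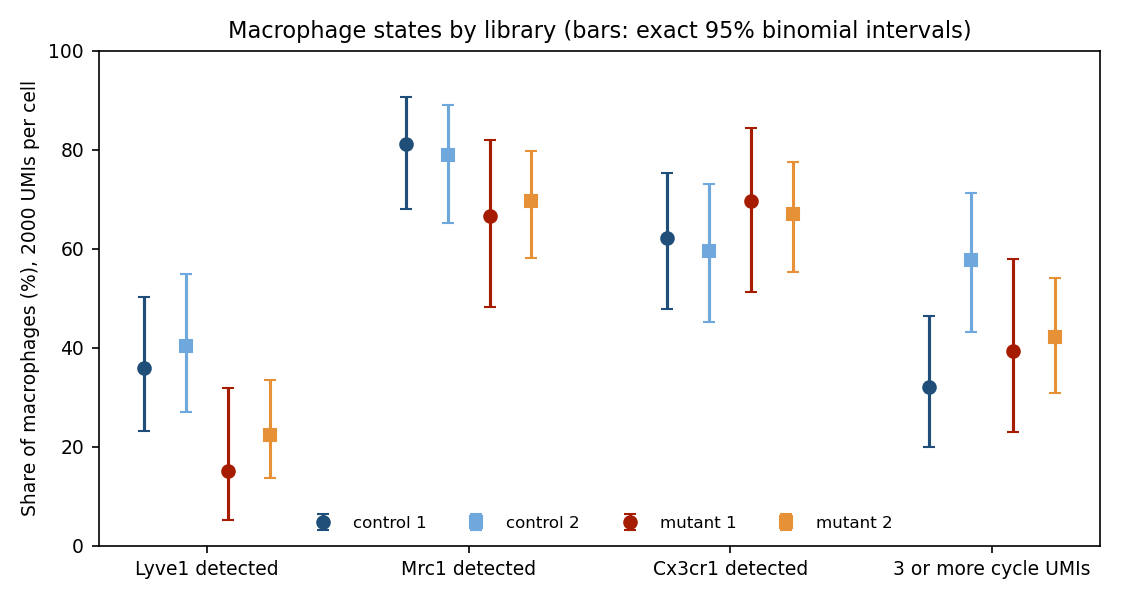
Share of macrophages (%) with at least 1 UMI of Lyve1, Mrc1 or Cx3cr1, or with 3 or more UMIs over 20 cell cycle genes, after thinning to 2000 UMIs per cell. Points are libraries and bars exact 95% binomial intervals; Lyve1 is at 35.8 and 40.4% in controls and 15.2 and 22.4% in mutants, while the cycling shares overlap.

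Cx3cr1, also a rule gene, was detected in 62.3% (47.9 to 75.2) and 59.6% (45.1 to 73.0) of control macrophages and in 69.7% (51.3 to 84.4) and 67.1% (55.4 to 77.5) of mutant ones after thinning. This order did not hold at other depths: thinned to 4000 UMIs the shares were 84.0, 83.0, 71.0 and 76.7%, the reverse order, and unthinned they were 87.3, 87.9, 80.6 and 87.2%. The thinned share among the other cells was 1.86 to 2.59%. No difference in Cx3cr1 can be read from these shares. The log2 change of the Cx3cr1 level was -0.05 ± 0.17 (SE, edgeR adjusted p 0.978).

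Both receptors marked overlapping sets of cells. Lyve1 and Cx3cr1 were detected together in 24.5, 26.9, 12.1 and 14.5% of macrophages of control 1, control 2, mutant 1 and mutant 2, Lyve1 alone in 11.3, 13.5, 3.03 and 7.89%, Cx3cr1 alone in 37.7, 32.7, 57.6 and 52.6%, and neither in 26.4, 26.9, 27.3 and 25.0%. The cells with Cx3cr1 alone were the largest class in every library, and the share with neither was near-constant. Mrc1 was detected in 19 of 19, 21 of 21, 5 of 5 and 16 of 17 Lyve1-detected cells and in 70.6, 64.5, 60.7 and 62.7% of Lyve1-undetected cells. Among Lyve1-detected cells Cx3cr1 was seen in 68.4, 66.7, 80.0 and 64.7%, and among the others in 58.8, 54.8, 67.9 and 67.8%. Per cell, Spearman's rho of Lyve1 with Mrc1 was 0.75, 0.71, 0.65 and 0.48, and of Lyve1 with Cx3cr1 0.15, 0.34, 0.13 and 0.16. In each library the first rho was the higher one.

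Many macrophages carried cell cycle transcripts. At least 3 UMIs over 20 cell cycle genes were found in 32.1% (19.9 to 46.3), 57.7% (43.2 to 71.3), 39.4% (22.9 to 57.9) and 42.1% (30.9 to 54.0) of thinned macrophages, against 23.5 to 26.7% of the other cells. Control 2 was highest and control 1 lowest, so the groups overlapped, with an exact permutation p of 1.00, and the direction turned without control 2 or without thinning. Birc5, which blocks apoptosis in dividing cells, was at 191, 287, 322 and 212 CPM. Ube2c, a ubiquitin-conjugating enzyme of mitosis, was at 179, 256, 297 and 173 CPM. Among Lyve1-detected macrophages the share was 42.1, 66.7, 40.0 and 41.2% and among the others 26.5, 51.6, 39.3 and 42.4%.

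Macrophages with and without a Lyve1 UMI were then compared within each library, to ask what else the Lyve1 state carried. Over the libraries 62 Lyve1-detected cells (median 9949.5 UMIs) stood against 152 Lyve1-undetected ones (8981 UMIs). Of 4246 genes tested, leaving out Lyve1, 130 rose and 163 fell in Lyve1-detected macrophages (edgeR quasi-likelihood, adjusted p under 0.05), 3.06% and 3.84% of genes. The group held 19, 21, 5 and 17 cells in the 4 libraries, so mutant 1 rests on 5 cells. Without control 1, 163 genes passed, of which 157 were among the 293.

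The 12 genes of the largest increase included the endothelin receptor B and the scavenger receptors Stab1 and Colec12. Ednrb, which encodes that endothelin receptor, was at 464, 487, 260 and 478 CPM in Lyve1-detected and 95.2, 100, 116 and 138 CPM in Lyve1-undetected macrophages of control 1, control 2, mutant 1 and mutant 2, a log2 change of 1.87 ± 0.19 (SE, edgeR adjusted p 1.8e-05). Stab1, a scavenger receptor that takes up modified proteins and dying cells, was at 1062, 1156, 1299 and 1087 against 384, 375, 431 and 481 CPM, a log2 change of 1.39 ± 0.11 (adjusted p 1.75e-06). Colec12, a scavenger receptor with a collagen-like stem, had a log2 change of 1.72 ± 0.16. Higher values in each library held for these 3 genes and by rule for the 9 others of the largest changes: Ltc4s, which makes leukotriene C4, Rasal2, Fcna, which makes a lectin of the complement system, Smim1, Osbpl9, Rbpj, the DNA-binding partner of Notch, Gas6, Ddx60 and Npl. Gas6 bridges phosphatidylserine on dying cells to the receptor Mertk, and was at 479, 495, 410 and 417 against 166, 139, 211 and 181 CPM.

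The genes that fell included genes known from monocytes, and Cd74, known from antigen presentation. Ccr2 had no UMI in the Lyve1-detected cells of any library and was at 141, 50.03, 110 and 156 CPM in the Lyve1-undetected ones, at least 26.4-fold lower against a floor of 3 counts over the group. Lgals3, galectin-3, had 0, 0, 0 and 3 UMIs in Lyve1-detected macrophages and stood at 144, 117, 101 and 221 CPM in the others. Cd52, a small leukocyte surface protein, was at 59.9, 72.5, 41.0 and 61.5 against 800, 381, 859 and 601 CPM, a log2 change of -3.34 ± 0.23 (edgeR adjusted p 4.71e-07). Cd74, the invariant chain of MHC class II, changed by -2.76 ± 0.30, with values between 8.05 and 41.0 against 75.0 to 231 CPM. The macrophage richest in Cd74 held 67, 17, 48 and 10 of the 93, 29, 67 and 63 UMIs in the 4 libraries. Of the 10 genes of the MHC class II and dendritic list, 1 was tested, Cd74. Also among the 12 of the largest decreases were S100a4 and S100a6, calcium-binding proteins, Clec12a, a myeloid lectin, Bcl2a1b, which has near-identical copies and is uncertain, Lsp1, Rgs1, Anxa1 and Capg. Ccr2 was seen in few cells, 6, 4, 8 and 17 macrophages of the 4 libraries.

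Of the 163 genes that fell 64 encode ribosomal proteins, with small changes. Of 77 such genes tested, 64 fell with Lyve1 and 0 rose (edgeR adjusted p under 0.05), with a median log2 change of -0.39 and a range of -0.62 to -0.08. These genes were grouped by symbol after the calls were seen. The number that fell was 61 with DESeq2 size factors, 40 without control 1, 45 without control 2 and 28 for 2 UMIs of Lyve1 against 0. In the Cx3cr1 split 0 of the 77 passed in either direction (median -0.26), and between genotypes also 0 (median 0.09).

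**Figure D3:**
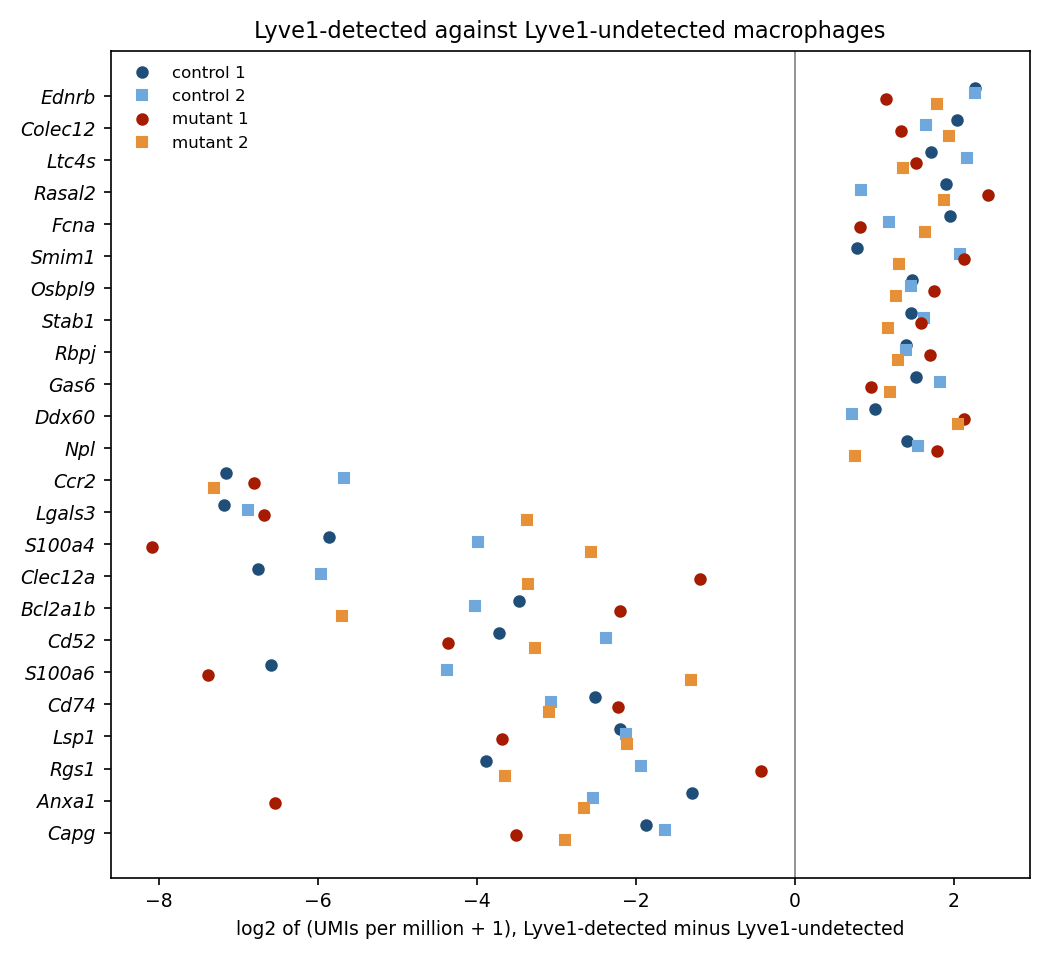
Difference on the log2(UMIs per 1000000 + 1) scale between Lyve1-detected and Lyve1-undetected macrophages of the same library, for the 12 genes of largest increase and the 12 of largest decrease past the threshold, 1 point per library. Every point of the first 12 genes lies right of 0 and every point of the other 12 left of it, as the choice of genes required.

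The list of perivascular and resident type macrophages had the most genes called. Of its 17 genes 12 were tested, and 11 rose: Pf4, Mrc1, F13a1, Dab2, Stab1, Fcgrt, Ms4a7, Gas6, Igf1, Folr2 and Ltc4s, with a median log2 change over the tested genes of 0.99 against -0.01 over all genes. Mrc1 was part of the cell rule and is given as a description. Pf4, platelet factor 4, was at 8080, 6100, 4239 and 4517 CPM against 2800, 2735, 2196 and 2292 CPM. F13a1 was at 2883, 2263, 1887 and 2248 against 1116, 848, 807 and 1143 CPM. Of 5 tested growth and trophic factor genes, Grn, Gas6, Igf1 and Nrp1 rose. Of 8 tested genes of apoptotic cell clearance, Stab1, Abca1, Gas6 and Mertk rose, Mertk by 1.16 ± 0.23 (adjusted p 0.00448). Of 18 lysosome genes, 6 rose: Ctsb, Lgmn, Lamp1, Ctsd, Cd63 and Grn. Over all genes tested 3.06% rose and 3.84% fell, and the list counts were not tested against these shares.

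Iron handling and lipid handling split differently, where 3.06% of all genes tested rose and 3.84% fell. Of 9 tested iron and haem genes, Hmox1, which breaks down haem, Blvrb, the next enzyme of that path, and Slc40a1, the iron exporter ferroportin, rose, the last by 1.15 ± 0.19 (edgeR adjusted p 0.00132). The ferritin genes Ftl1 and Fth1 had log2 changes of 0.03 and -0.33 and did not pass. Of 9 tested lipid genes, Abca1, the cholesterol exporter, rose by 0.76 ± 0.15, and Fabp5 and Apoc1 fell by 1.64 ± 0.23 and 1.87 ± 0.35. Apoe, the most abundant of them at 6820 to 11859 CPM, had a log2 change of 0.17 ± 0.09 (adjusted p 0.362).

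Other lists held fewer calls. Of 4 tested monocyte genes Ccr2, S100a4 and S100a6 fell, with a median log2 change of -3.69 over the 4, and of 12 pan-myeloid genes 5 fell: Lyz2, Coro1a, Aif1, Ctss and Ptprc. In the list of the Csf1r axis, Maf, a transcription factor of resident macrophages, rose by 0.63 ± 0.09. Of 11 tested chemokine and cytokine genes, Ccl24 rose by 1.16 ± 0.22 (edgeR adjusted p 0.00344) and Cxcl2 fell by 1.52 ± 0.33 (adjusted p 0.00924). In mutant 1 Ccl24 was not higher with Lyve1 (150 against 156 CPM). Of the C1q chains C1qc passed, at 0.35 ± 0.09, and as a rule gene it is given as a description. Of 15 immediate early genes Atf3 and Junb fell, and of 19 tested cell cycle genes Pcna rose by 0.62 ± 0.17. Over all genes tested 3.06% rose and 3.84% fell, so 1 call in a list of this size is not a result about the list.

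Macrophages with a Cx3cr1 UMI after thinning were compared with those without in the same way. Over the libraries 138 detected cells stood against 76 undetected ones. Unthinned, 196 of 227 macrophages had a Cx3cr1 UMI, so many undetected cells carried Cx3cr1 before thinning. Undetected cells held Cx3cr1 at 280, 353, 284 and 203 CPM, against 852, 944, 806 and 877 CPM in detected ones. Cx3cr1 is a rule gene, so the split is partly tied to the choice of cells. The rule genes C1qa and Mrc1, both among the calls, are given as a description. Of 4018 genes tested, leaving out Cx3cr1, 29 rose and 22 fell (edgeR adjusted p under 0.05), 0.722% and 0.548% of genes. This count rested on single libraries, since 17 genes passed without control 2, 12 without mutant 2 and 112 without mutant 1. RNA of other cell types moved with this split. Of the 15 macrophages rich in such RNA 12 were Cx3cr1-undetected, and Col1a1, the collagen of fibroblasts and bone, was at 12.2, 69.2, 47.0 and 22.9 CPM in detected and 351, 261, 19.6 and 864 CPM in undetected cells. Without those 15 cells 32 genes passed, 29 of them among the 51, and the part of this RNA in the remaining calls was not tested. With the cells split without thinning 49 genes passed, 19 of them among the 51. DESeq2 called 37 genes, 20 of them among the 51.

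Genes higher with Cx3cr1 in every library included general macrophage genes. Kitl, the stem cell factor, was at 42.6, 108, 43.6 and 120 CPM in Cx3cr1-detected and 16.7, 27.5, 9.79 and 4.06 CPM in Cx3cr1-undetected macrophages, a log2 change of 2.36 ± 0.45 (edgeR adjusted p 0.0154). Adgre1 was at 389, 372, 393 and 405 against 142, 266, 137 and 162 CPM, a log2 change of 1.09 ± 0.21. Lyve1 was at 554, 644, 178 and 245 against 334, 257, 29.4 and 138 CPM, a log2 change of 1.05 ± 0.23 (adjusted p 0.0283). Gas7, Ddx60, Gab3, Rasgef1b, Dse, Osbpl8, Man1a and Slc9a9 completed the 12 genes of the largest increase with Mrc1, a rule gene. Fcrls rose by 1.01 ± 0.16 (adjusted p 0.00567), Maf by 1.04 ± 0.14 and Apoe by 0.68 ± 0.09.

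The genes that passed, were lower with Cx3cr1 in every library and reached 50 CPM were 8: S100a11, H19, Auts2, Csrp2, S100a10, Tmsb10, Vim and Capg. S100a11, a calcium-binding protein, was at 57.8, 76.9, 87.3 and 73.9 CPM in Cx3cr1-detected against 276, 211, 117 and 345 CPM in Cx3cr1-undetected macrophages, a log2 change of -1.75 ± 0.28 (edgeR adjusted p 0.00567). Vim, the intermediate filament of mesenchymal and migrating cells, was at 274, 638, 366 and 568 against 899, 848, 587 and 1258 CPM. The 3 tested genes of the mesenchyme list, Col1a1, Col1a2 and Col3a1, fell as well, not in every library. Of the list of perivascular and resident type macrophages 13 were tested, and Lyve1, Mrc1 and Dab2 rose. Cd74 fell by 2.25 ± 0.44 (adjusted p 0.0170), although not in mutant 2. In each of control 1, control 2 and mutant 1, 1 macrophage held most of the Cd74 UMIs. Of 7 tested microglia genes Fcrls rose and Sparc, also a matrix gene of fibroblasts, fell by 2.30 ± 0.38. Over all genes tested 0.722% rose and 0.548% fell in this split, and the list counts were not tested against these shares.

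Mutant and control macrophages were compared last, over all members of each library. Lyve1 and the chemokines Ccl7, Ccl2 and Ccl12 were at lower levels in both mutant libraries than in both controls, but no gene passed the threshold in the comparison as designed. Of 6936 genes tested, 0 passed an edgeR adjusted p of 0.05 (0.0%), 160 higher and 205 lower genes had an unadjusted p under 0.05 (2.31% and 2.96%), and DESeq2 called 6. In these sums over cells, fewer cells in a state and less RNA per cell cannot be told apart.

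Ccl7 (monocyte chemoattractant protein 3) lies on chromosome 11 at 82045712 to 82047525, beside Ccl2 (82035571 to 82037453) and Ccl12 (82101845 to 82103400), and all 3 encode ligands of Ccr2. Ccl7 was at 410, 369, 124 and 98.2 CPM in control 1, control 2, mutant 1 and mutant 2, a log2 change of -1.81 ± 0.21 (SE, n = 2 against 2, edgeR adjusted p 0.0893). Both mutants lay below both controls. It had the lowest p of all genes, and its adjusted p was between 2.58e-11 and 0.204 over 13 alternatives, under 0.05 in 10. At least 1 Ccl7 UMI was in 23 of 55, 28 of 58, 8 of 36 and 17 of 78 macrophages, and the cell richest in it held 54, 54, 24 and 15 of the 234, 228, 50 and 63 UMIs. Control 2 also had Ccl7 at 12.7 CPM in the other cells, against 1.81 to 2.74 CPM in the remaining libraries.

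Ccl2 (monocyte chemoattractant protein 1) was at 912, 1095, 245 and 460 CPM, a log2 change of -1.47 ± 0.26 (edgeR adjusted p 0.438). Ccl12 was at 785, 431, 228 and 285 CPM, a log2 change of -1.22 ± 0.28 (adjusted p 0.559), which was -0.70 without control 1. Over the 13 alternatives the adjusted p of Ccl2 ran from 4.28e-12 to 0.499 and that of Ccl12 from 5.70e-10 to 0.956. All mutant values were below all control values for both genes. In the other cells Ccl2 had the same order, at 5.41, 16.4, 2.19 and 4.16 CPM. Ccl12 had it there too, at no more than 0.940 CPM. Ccl4 was also lower in both mutants, at 531, 421, 186 and 411 CPM, whereas the groups overlapped for Ccl3, at 298, 414, 163 and 351 CPM. Of 15 tested chemokine and cytokine genes 7 were lower in both mutant libraries than in both controls and 2 were higher. Among all genes 19.0% were lower and 16.4% higher in that sense.

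Lyve1 had a log2 change of -1.45 ± 0.21 (edgeR adjusted p 0.239, and 3.88e-08 to 0.930 over 13 alternatives), from the CPM values given above. Pf4 was at 4655, 4100, 2555 and 2812 CPM, a log2 change of -0.69 ± 0.14 (adjusted p 0.496). Fcna, higher in Lyve1-detected cells, was at 126, 92.3, 34.6 and 51.4 CPM, -1.28 ± 0.29 (adjusted p 0.556). Mrc1 had a log2 change of -0.27 ± 0.14 and F13a1 of -0.38 ± 0.19, with adjusted p of 0.887 each. Stab1 was at 620, 690, 584 and 617 CPM, -0.11 ± 0.16. Of the 14 tested genes of the perivascular and resident list, 9 were lower in both mutant libraries and 0 higher. Among all genes 19.0% were lower and 16.4% higher in that sense. Lower with an unadjusted edgeR p under 0.05 were 4 genes of the list (Pf4, Dab2, Lyve1 and Folr2), and 2.96% of all genes. The median log2 change of the list was -0.23 against 0.00 over all genes.

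**Figure D4:**
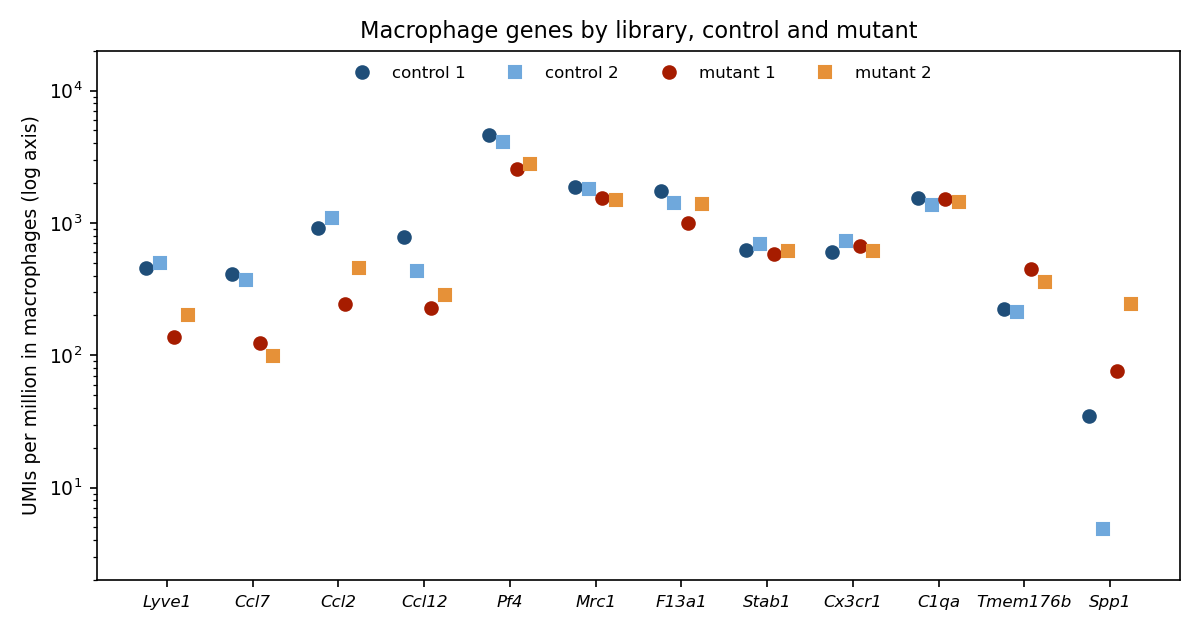
UMIs per 1000000 (log axis) of 12 genes in macrophages, 1 point per library. Lyve1, Ccl7, Ccl2, Ccl12 and Pf4 lie lower in both mutant libraries than in both controls, Stab1, Cx3cr1 and C1qa have log2 changes of -0.11, -0.05 and 0.03, and Tmem176b and Spp1 lie higher; none passed an edgeR adjusted p of 0.05.

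The chemokine values were also read within each Lyve1 state, since the mutants held fewer Lyve1-detected cells. In Lyve1-undetected macrophages Ccl7 was at 318, 267, 150 and 93.4 CPM, and in that state alone its log2 change was -1.30 ± 0.28 (edgeR adjusted p 0.204). In Lyve1-detected macrophages it was at 584, 532, 13.7 and 116 CPM, from 1 UMI in mutant 1 and 17 in mutant 2. Ccl2 was at 669, 756, 294 and 489 CPM without and at 1372, 1627, 41.0 and 369 CPM with Lyve1. The values with Lyve1 rest on 3 Ccl2 UMIs in mutant 1 and 54 in mutant 2. In both states the mutants were below the controls for both genes. In controls Ccl2 was higher with Lyve1 than without, in mutants lower, and the difference between the genotypes was not tested. Ccl12 was at 669, 350, 208 and 286 CPM without and at 1008, 552, 301 and 287 CPM with Lyve1. No gene passed in Lyve1-undetected macrophages alone (0 of 5244 by edgeR, 255 at an unadjusted p under 0.05).

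**Figure D5:**
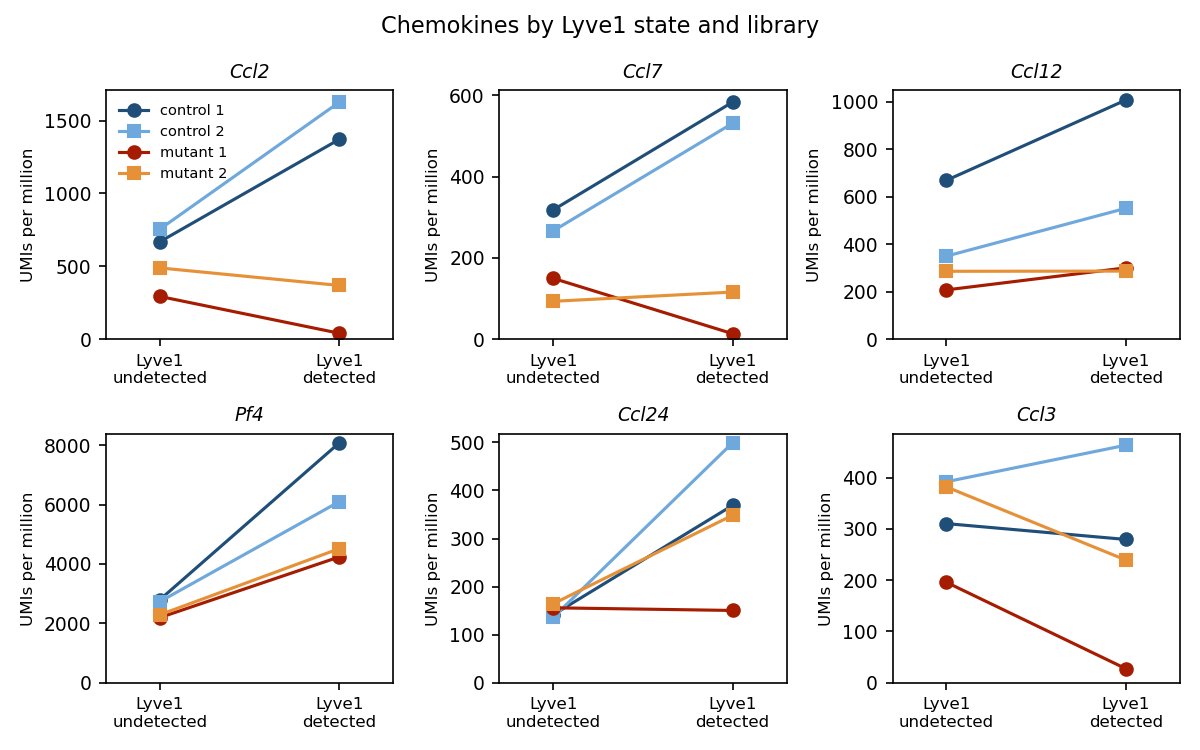
UMIs per 1000000 of 6 chemokines in Lyve1-undetected and Lyve1-detected macrophages, 1 line per library, with the axis from 0 in each panel. Ccl2 and Ccl7 lie lower in both mutant libraries in both states, Pf4 rises with Lyve1 in every library, and mutant 1 has 5 Lyve1-detected cells.

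The remaining 4 genes of lowest p on the lower side were more abundant in the other cells. Auts2 was at 180, 210, 39.6 and 76.3 CPM in macrophages and at 1312, 1549, 1412 and 1460 CPM in the other cells, a log2 change in macrophages of -1.68 ± 0.29 (edgeR adjusted p 0.438). Without the macrophages rich in other-type RNA that change was -1.12 ± 0.37. Efna5, an ephrin, was at 56.0, 120, 4.95 and 17.1 CPM against 503 to 634 CPM in the other cells, and Zfhx4, a transcription factor, at 36.8, 40.5, 4.95 and 9.35 against 265 to 360 CPM. Thsd7a had 18, 28, 0 and 0 UMIs, at least 13.5-fold lower in mutants against a floor of 3 counts over the group, and was at 45.1 to 65.7 CPM in the other cells. The part of RNA from other cells in these 4 genes was not tested beyond that alternative.

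On the higher side none of the 8 genes of lowest p passed either. Spp1, osteopontin, was at 35.0, 4.86, 76.7 and 246 CPM, a log2 change of 3.11 ± 0.69 (edgeR adjusted p 0.496) that was 5.08 without control 1 and 2.00 without mutant 2, and in the other cells at 59.2, 8.82, 63.7 and 96.8 CPM, where control 2 was also lowest. Tmem176b, a membrane protein of myeloid cells, was at 224, 214, 445 and 355 CPM, 0.88 ± 0.19 (adjusted p 0.496). Polr2f, a subunit of RNA polymerases, was at 128, 175, 299 and 344 CPM in macrophages and at 200, 191, 374 and 351 CPM in the other cells, so its order was that of all cells. Rabgef1 and Gm10076 followed the other cells in the same way. Tex14 (85.8, 113, 235 and 203 CPM), Gm11290 (19.3, 17.8, 59.4 and 70.1 CPM) and Hspb1, a small heat shock protein (35.0, 14.6, 69.3 and 106 CPM), did not follow the other cells, where they overlapped between the groups.

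The genes of the rule had small log2 changes with genotype. C1qa, C1qb and C1qc had log2 changes of 0.03 ± 0.15, 0.08 ± 0.16 and 0.02 ± 0.15, Csf1r of 0.20 ± 0.17, Fcer1g of 0.00 ± 0.15 and Tyrobp of 0.06 ± 0.18, none with an edgeR adjusted p under 0.914. The members were chosen by these genes. Among all genes tested 16.4% were higher and 19.0% lower in both mutant libraries than in both controls, and the list counts that follow were not tested against these shares. Of 18 tested lysosome genes 6 were higher in both mutant libraries and 0 lower, with a median log2 change of 0.22. Ctsb, the most abundant of them, had -0.02 ± 0.14. Of 11 tested lipid genes 6 were higher and 0 lower, with a median of 0.36. Apoe was at 9297, 6820, 11859 and 9868 CPM, 0.45 ± 0.17 (adjusted p 0.887). Of 7 tested interferon response genes 3 were lower and 0 higher, among them Bst2 at 433, 432, 208 and 405 CPM. Of 7 tested monocyte genes 3 were lower in both mutant libraries and 1 higher. Of these 7, S100a6 at 0.72 ± 0.29 and Vcan, a matrix proteoglycan, at -1.00 ± 0.37 had an unadjusted p under 0.05 (edgeR adjusted p 0.887 each), and Ccr2 was at 0.85 ± 0.43 (adjusted p 0.887). Cd74, of the MHC class II list, was at 0.33 ± 0.49 (adjusted p 0.957).

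The genotype difference was also set against the same difference in the other cells of each library. Of 16396 genes 30 were higher and 58 lower in that sense (edgeR adjusted p under 0.05), 0.183% and 0.354%. Pf4 passed, at -2.36 ± 0.44 on the log2 scale, and its level in the other cells was 18.5 CPM in mutant 1 and at most 2.70 CPM elsewhere. Lyve1 (-0.90 ± 0.75), Ccl7 (-0.57 ± 0.44) and Ccl2 (0.10 ± 0.27) did not pass, with an adjusted p of 1.0 each.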

How the data were processed

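The authors deposited raw UMI counts per gene and barcode (32285 features, filtered to cells), made with Cell Ranger 8.0.1 per the file headers, whereas the submitters' processing notes name Cell Ranger 4, Seurat 4.3.0 and mm10. Retained barcodes had 500 genes or more and no more than 10% mitochondrial UMIs. Counts of macrophages were summed per library (404253 to 641788 UMIs) and per state, and CPM is UMIs per 1000000 of such a sum. The test was the quasi-likelihood test of edgeR 4.0.16 in R 4.3.3, after filterByExpr and TMM, with Benjamini-Hochberg adjustment over all genes tested at 0.05, between genotypes (2 against 2 libraries) or within libraries between states, with library as a term, and as a genotype difference between macrophages and other cells. The SE was taken from the log2 change and its F statistic (change over root F). The edgeR steps were checked on simulated counts with known changes and a fixed dispersion. Those counts held no single cells of outlying RNA, so the check does not cover that feature of these data. The members, lists and tests were chosen with earlier results of these data known.

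States are at least 1 UMI after thinning to 2000 UMIs. Doublets were scored with Scrublet in scanpy 1.11.5. Its automatic threshold marked 0 to 3 cells per library and had not worked, so doublets were kept in the main results, and as an alternative the top scores were left out at 0.8% per 1000 barcodes, which took 4, 7, 1 and 5 macrophages. Further alternatives were DESeq2 1.42.0, its size factors, no filter, stricter members (6 of 8 genes, 10 C1q UMIs), stricter cells (1000 genes, 5% mitochondrial), a replicate block, other thinning, each library left out and, added after seeing the data, Lyve1-undetected members only and no macrophages with over 0.5% other-type UMIs.

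Named genes were the rule genes and Lyve1, the 15 leading genes, for genotype the 8 of lowest p per direction without overlap, for each split the 12 largest changes per direction past the threshold, in the same direction in 4 libraries and at 50 CPM or more, the most abundant or passing list members, and, for the genotype difference between macrophages and other cells, the 5 largest per direction. The genes given by state were chosen after their values were seen. Some list members, among them a gene that passed in the Lyve1 split, are not reported here. Coordinates are GENCODE M21 (GRCm38), matched by identifier for 32158 features. The libraries come from 2 sequencing providers that the labels do not tie to libraries, and a further sample named there was not analysed here.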

Additional observations from a re-analysis of the deposited data

Results flagged for a closer look

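The genotype difference was tested against the same difference in the other cells of each library, and 88 of 16396 genes (30 higher, 58 lower, 0.183% and 0.354%) passed an edgeR adjusted p of 0.05. Of these 66 were under 50 CPM in macrophages and 72 were lower there than in the other cells. DESeq2 called 16, of which 11 were among the 88. Without the 15 macrophages rich in other-type RNA 73 genes passed, 35 of them among the 88.

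The largest values were Hba-a1 (-14.6), the mast cell genes Cma1 (-14.44), Cpa3 (-13.07) and Tpsb2 (-13.05), and Thsd7a (-12.04) on the lower side, and Gng13 (12.15), Krt18 (11.99), Wfdc2 (11.93), Col9a3 (11.93) and Stmn3 (11.58) on the higher side. Fitted values of genes at 0 in a group depend on the prior count and bound nothing. All 271 Cma1 UMIs came from 1 macrophage of control 2, and 1 macrophage of control 2 held 1996 of its 1999 UMIs of Hbb-bs (-5.76). Hba-a2 (-7.2) and Hbb-bt (-6.22), also haemoglobin genes, were at 863 and 1985 CPM in the macrophages of control 2.

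The 88 held 12 genes at 50 CPM or more in macrophages and higher there than in the other cells. Beside those above these were Pf4 (-2.36), Cd36 (-1.78), Spp1 (1.7), Tex14 (1.41), Ccl3 (1.38) and Pid1 (1.15), on the log2 scale, and this set was chosen after its values were seen. Pf4 was at 18.5 CPM in the other cells of mutant 1 and at no more than 2.70 CPM in the rest. Cd36, a fatty acid and scavenger receptor, was at 222, 508, 148 and 165 CPM in macrophages and at 4.52, 2.30, 5.12 and 5.99 CPM in the other cells. Ccl3 was at 1.84, 2.09, 0.348 and 0.762 CPM in the other cells. Lyve1, Ccl7, Ccl2 and Ccl12 did not pass (adjusted p 1.00 each), with their levels in the other cells at or below 16.4 CPM.

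The genes read by state were chosen after their values were seen. In 3 of them the difference between states went one way in both control libraries and the other way in both mutant libraries. This was not tested, and the share of all genes with that pattern was not counted. Ccl2 was higher with Lyve1 in controls and lower in mutants, and the mean state difference of mutants minus that of controls was -2.68 on the log2(CPM + 1) scale. In mutant 1 Ccl2 was at 41.0 CPM with Lyve1, from 3 UMIs in 5 cells, against 294 CPM without. In mutant 2 it was at 369 against 489 CPM, a smaller difference. Ccl4 and Ccr2 were lower with Cx3cr1 in controls and higher in mutants, by 1.71 and 2.63 on that scale. In library order Ccl4 was at 490, 364, 218 and 543 CPM with Cx3cr1 and 593, 541, 97.8 and 203 CPM without. Ccr2 was at 18.3, 25.6, 97.3 and 148 CPM with and 192, 36.7, 68.5 and 77.1 CPM without. These Ccr2 values rest on 52, 18, 36 and 77 UMIs in 6, 4, 8 and 17 macrophages of both states.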

How the results depend on the processing

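Genotype calls rose from 0 to 6 with DESeq2, 145 with no filter on low counts, 9 without doublets, 1 with stricter members, 2 without macrophages rich in other-type RNA and 9 with the replicate block, and between 20 and 135 with 1 library left out. The 9 with the block included Ccl7, Ccl2 and Lyve1. Same-numbered libraries did not deviate together (r = 0.0046 over 6936 genes). In sums over 36 to 78 cells counting error can hide a pairing, so whether the numbers pair libraries was not settled. Leaving out 1 library leaves 1 library in a group, which is then assumed to vary like the others. The calls against the other cells fell to 16 with DESeq2 and lay between 84 and 109 with 1 library left out. Lyve1 calls were 178 with DESeq2, 449 without thinning, 169 at 2 UMIs against 0, and 163 to 263 with 1 library left out. Cx3cr1 calls were 355 with no filter, 32 without macrophages rich in other-type RNA, and 12 to 112 with 1 library left out. The mutant minus control difference of the Lyve1 share was -26.2 points at 4000 UMIs and between -23.0 and -15.7 with 1 library left out. That of the Cx3cr1 share was 5.12 without doublets, 2.81 with stricter members, -3.73 unthinned, -9.65 at 4000 UMIs and 6.14 to 8.79 with 1 library left out. That of the cycling share was -4.13, and -7.73 with stricter members, -1.21 at 4000 UMIs, 1.32 unthinned and -16.9 to 8.67 with 1 library left out. That of the macrophage share was -0.316, and -0.197 without doublets, -0.192 with stricter members and -0.814 to 0.181 with 1 library left out. Of single genes, Vim in the Cx3cr1 split reversed without thinning (0.0651), and against the other cells Thsd7a reversed without doublets (0.24) and Stmn3 without macrophages rich in other-type RNA (-0.0222), where Cma1 (-0.05), Gng13 (0.249) and Wfdc2 (6.67) lost their calls. With 1 library left out Cma1 lay between -16.59 and 0.55 (reversed without control 2), and Gng13 between -0.42 and 13.70, Wfdc2 between -0.31 and 12.79 and Stmn3 between -0.43 and 12.78 (reversed without mutant 2). The cause was not tested. Genotype calls of named genes (Mrc1 included, the other rule genes not) were gained in 71 of 243 further fits, in which no direction turned, and Cx3cr1 (-0.05, no call in 13) turned sign in 3. With 36 to 78 macrophages per library, genes under about 50 CPM rest on few UMIs.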
